A study of Homo sapiens with 4 samples.

Results

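THP-1 and MonoMac-1 are established lines of acute monocytic leukemia that carry the MLL-AF9 fusion, and their RNA-seq libraries were compared gene by gene. Each line was represented by 1 library, 2 of the 4 leukemia line libraries in the series, the others being HL60 and KG1a. A gene was counted as measured when its deposited RPKM, a read density scaled to gene length and to the library total, was 1 or more in either line, which kept 12047 of 21865 gene symbols. All 4 lines were cultured in RPMI/Opti-Media medium with fetal bovine serum and antibiotics. The sample title of THP-1 ends in "tr", which no label explains, so a treatment or modification of that culture cannot be told apart from the line itself. With 1 library per line no test of a difference between the lines was possible, and culture, passage and library preparation could not be separated from the line. That both lines carry the fusion is background knowledge; the sample labels do not name it.

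MLL-AF9 joins the amino-terminal part of the histone methyltransferase MLL (KMT2A) to AF9 (MLLT3), a subunit of transcription elongation complexes. The fusion keeps a program of HOXA genes and their cofactors active in myeloid precursors and is typical of leukemias of monocytic type. Lines that share such a fusion can still differ in the other lesions of their genomes and in how far along the monocytic path their cells stand.

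The deposited sums of sequenced bases on genes came to 6.04 gigabases for THP-1 and 13.6 gigabases for MonoMac-1, against 8.72 for HL60 and 10.2 for KG1a. Genes at 1 RPKM or more numbered 11346 in THP-1 against 11240 in MonoMac-1. Low base sums in MonoMac-1 fell on multiples of 100 in 12.7% of entries, against 48.3% in THP-1 and 44.8% to 49.7% in the other libraries. Genes abundant in THP-1 or MonoMac-1 and nearly absent from HL60 and KG1a were looked up in the other MLL-AF9 line. Genes with a large share there were left out beforehand. Median shares were 0.355% for 10 THP-1 genes in MonoMac-1 and 1.11% for 8 MonoMac-1 genes in THP-1. Whether the share was constant was not measured. Not all markers fixed for monocytes were present in both lines. CD163 reached only 0.063 RPKM in the THP-1 library, while MonoMac-1 had 1.89. CD68, found in lysosomes of macrophages, was at 170 RPKM in THP-1 against 219 in MonoMac-1, and the monocytic transcription factor IRF8 at 231 and 163. CD14 was low in both (1.28 and 4.13), as was ITGAM (3.59 and 1.75). The neutrophil elastase family of granule proteases, typical of earlier myeloid precursors, was high in both, with ELANE at 1042 and 1313. Defining T, B and epithelial markers CD3E, MS4A1 and EPCAM were all below 0.1 RPKM in both lines.

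Differences are given as log2(RPKM + 1) in THP-1 minus the same in MonoMac-1, and "4-fold" means a difference of 2 on that scale, which understates ratios of low genes. Where values without a line's name are joined by "and", THP-1 comes first; where they are joined by "against", the higher line comes first. THP-1 was at least 4-fold higher for 263 genes (2.18% of those measured) and MonoMac-1 for 294 (2.44%), either direction together making 4.62%. The remaining 11490 genes lay between these bounds, and 81.3% of all measured genes were within 2-fold. The median difference was -0.07, and 45.6% of genes were higher in THP-1 by any margin against 54.4% in MonoMac-1. Across genes, which are not independent replicates, log2(RPKM + 1) of the lines correlated with a Pearson coefficient of 0.867. The same 4-fold rule separated 878 genes between HL60 and MonoMac-1 and 1602 between KG1a and MonoMac-1. Just inside the threshold lay KCNG1 (3.48 against 0.118 RPKM, difference 2.001), and just outside it BATF3 (4.10 against 0.281, difference 1.99).

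**Figure D1:**
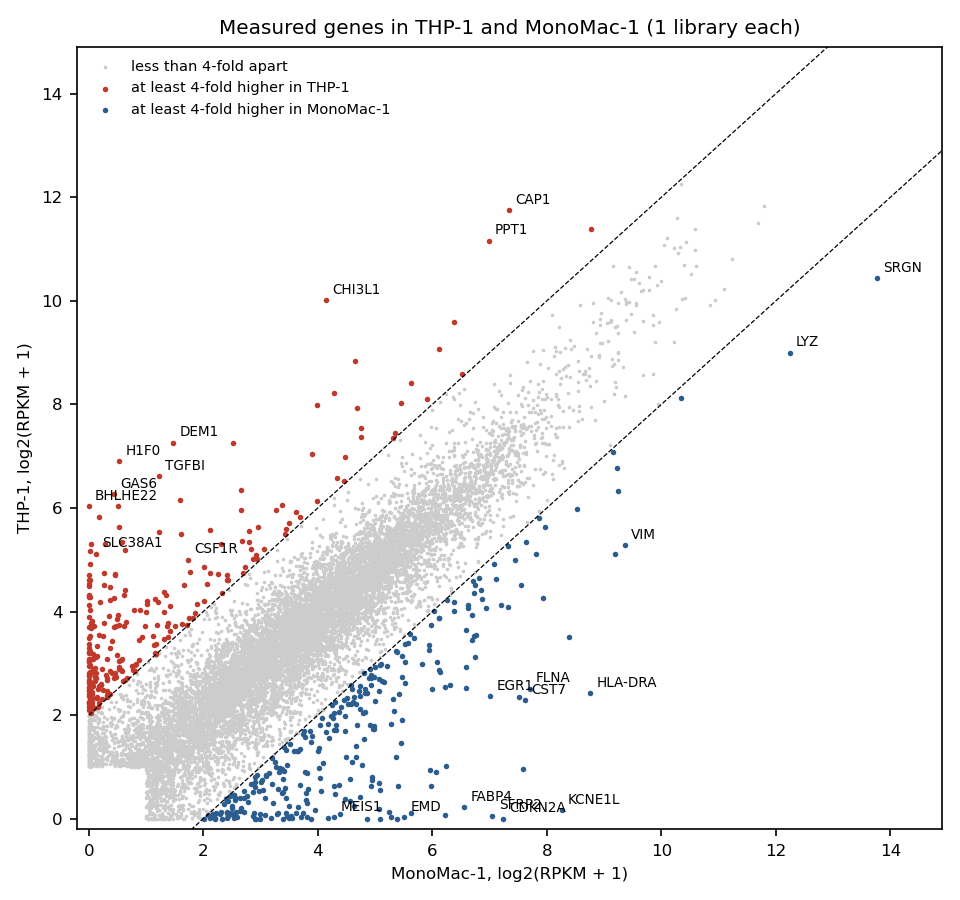
Each point is 1 of the 12047 measured genes, with its log2(RPKM + 1) in MonoMac-1 on the horizontal axis and in THP-1 on the vertical axis. Dashed lines mark a 4-fold difference; 263 genes (red) lie above the upper line and 294 (blue) below the lower.

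The genes that led toward THP-1 were a mixed set of secreted proteins, developmental transcription factors and genes of chromosome 1. H1F0, the linker histone H1.0 (chr22:38201114-38203443, hg19 coordinates as deposited), measured 119 RPKM in THP-1 (95% exact Poisson interval 116 to 121) and 0.443 in MonoMac-1 (0.352 to 0.551), with 47.1 in HL60 and 5.09 in KG1a. These intervals treat 200 sequenced bases as 1 fragment and cover counting error only. CHI3L1, a chitinase-like glycoprotein secreted by macrophages, was at 1035 in THP-1 against 16.6 in MonoMac-1, with 7.0 in HL60 and 0.966 in KG1a. GAS6, the ligand of the TAM receptor kinases, was at 76.1 in THP-1 against 0.353 in MonoMac-1, and TGFBI, an extracellular matrix protein, at 96.8 and 1.33. TIMP3, an inhibitor of metalloproteinases, was at 29.4 and 0.0136. The detoxifying enzyme GSTM1 stood at 34.9 in THP-1 and 27.3 in KG1a, against 0.0159 in MonoMac-1. SLC38A1, a glutamine transporter, was at 33.8, 42.4 and 41.5 in THP-1, HL60 and KG1a and at 0.0872 in MonoMac-1, so for this gene MonoMac-1 stood apart. DHRS9, a retinol dehydrogenase (48.9 and 0.445), PPIC, a cyclophilin (64.9 and 0.425), and C13orf18 (56.0 and 0.130) were also under 3 RPKM in HL60 and KG1a.

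Among the 15 genes with the largest differences toward THP-1 were 3 transcription factors. BHLHE22, a basic helix-loop-helix factor of neurons, was at 64.9 in THP-1 and listed at 0 in MonoMac-1 and KG1a. The homeobox genes OTX1 (38.3 against 0.0257) and SHOX2 (38.7 against 0.221) had the same pattern. Further transcription factor genes, picked after their values were seen and for being higher in THP-1, were SP9 (25 against 0.00874), DMRTA2 (23.6 against 0.00810), TBX18 (18.9 against 0.00312), POU4F2 (18.8 against 0.00401), FOXD1 (25.7 against 0.206) and ALX1 (18.4, listed at 0 in MonoMac-1). HL60 and KG1a had no more than 1.84 RPKM of any of these genes. Such genes were not counted as a class, and others, among them MEIS1 and HOXA3 (below), were higher in MonoMac-1.

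The genes that led toward MonoMac-1 included a cell-cycle inhibitor, mast cell and granule proteases, lipid carriers and antigen presentation genes. KCNE1L, an auxiliary subunit of potassium channels (chrX:108866929-108868393), measured 306 RPKM in MonoMac-1 (interval 303 to 309) and between 0.104 and 0.151 in each of the other lines. SFRP2, a secreted antagonist of Wnt ligands, was at 132 in MonoMac-1 and 0.0434 in THP-1, and FABP4, a fatty acid carrier of macrophages and adipocytes, at 93.0 against 0.172. HP, the hemoglobin-binding plasma protein haptoglobin, was at 62.2 against 0.558. The tryptase genes TPSD1 (48.4 against 0.0785), TPSB2 (37.0 against 0.0987) and TPSAB1 (32.6 against 0.132), proteases of mast cells, were high together, but they are near-identical neighbours and their reads may be split among copies. PRSSL1, a serine protease of neutrophil granules, was at 190 in MonoMac-1, 113 in KG1a, 16 in HL60 and 0.942 in THP-1. PLA2G16, a phospholipase, was at 40.9 in MonoMac-1 and listed at 0 in THP-1. S1PR4, a receptor for sphingosine 1-phosphate in blood cells, was at 37.9, 28.7 and 33.7 in MonoMac-1, HL60 and KG1a and at 0.0180 in THP-1, so there THP-1 stood apart.

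The place of the other lines was counted for all genes 4-fold apart. Of the 263 genes higher in THP-1, THP-1 was 4-fold above all 3 other lines for 147 (55.9%), and MonoMac-1 was 4-fold below all 3 for 24. Of the 294 genes higher in MonoMac-1, MonoMac-1 was above all 3 for 137 (46.6%), and THP-1 was below all 3 for 28. Genes high in 1 line alone outnumbered genes low in 1 line alone in both sets. The rule favours the former, which need a high level in 1 line, while the latter need it in all 3 other lines. No conclusion was drawn from that order. By the share measure described above, genes abundant in KG1a stood in HL60 at a median of 2.70% of their KG1a level over 35 genes. The source of that share was not tested. Without HL60 the counts were 179 and 54 for the first set and 181 and 68 for the second. Leaving a line out removes a condition, so none of these counts could fall.

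The genes were also read by their position on the chromosomes, which the choice of genes did not use. On chromosome 1, 65 of 1256 measured genes (5.18%) were 4-fold higher in THP-1 and 18 (1.43%) in MonoMac-1. A stretch, or run, was defined, after the data were seen, as overlapping windows of 10 neighbouring measured genes whose median difference was at least 1 in size. There were 20 stretches higher in THP-1, holding 320 genes (2.66% of those measured) and 66 of the 263 calls (25.1%), and 22 higher in MonoMac-1, holding 535 genes (4.44%) and 66 of the 294 calls (22.4%). The difference itself chose the stretches, so these shares, and the direction of most genes inside each, follow from the choice and are given as description only. DNA copy number was not measured in these libraries.

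**Figure D2:**
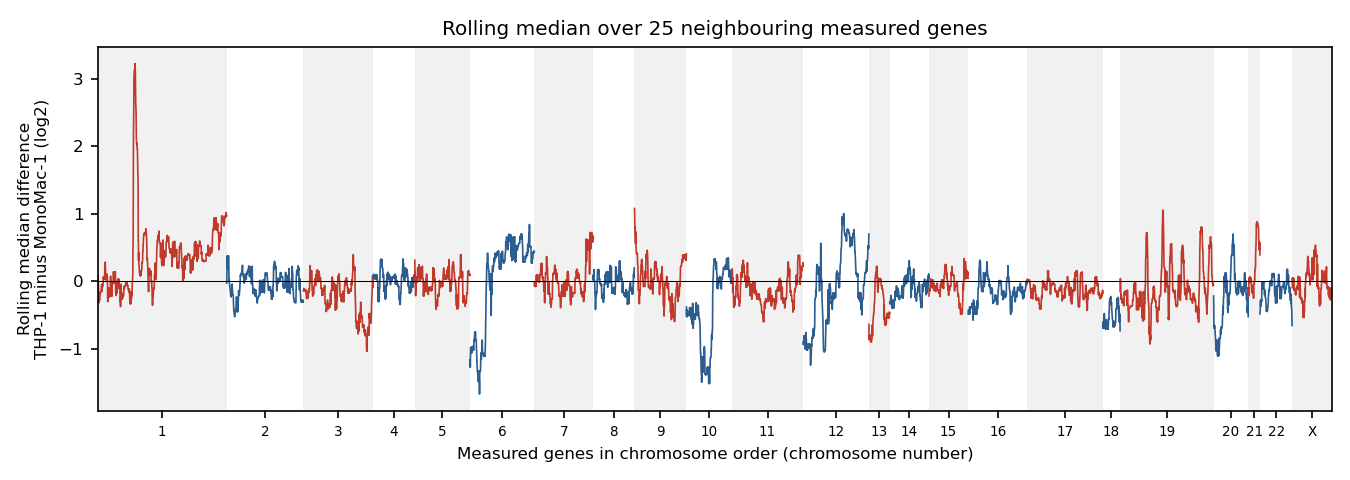
The line is the median difference, THP-1 minus MonoMac-1 in log2(RPKM + 1), over 25 neighbouring measured genes, with genes in chromosome order from 1 to X and colours alternating by chromosome. The highest peak is on chromosome 1, and deep troughs are on chromosomes 6, 10, 12 and 20.

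The strongest run was chr1:39547118-44443972, from MACF1 to ATP6V0B, 4.90 Mb with 58 measured genes. In it 35 genes were 4-fold higher in THP-1 and 0 were lower by as much, and 55 of 58 were higher in THP-1 by any margin, with a median difference of 2.18. The median level in the run was 54.0 RPKM in THP-1 and 9.38, 7.35 and 8.60 in MonoMac-1, HL60 and KG1a, and THP-1 had the highest value of the 4 lines for 51 of the 58 genes. CAP1, an actin-binding protein, was at 3440 against 161, with 118 in HL60 and 98.2 in KG1a. PPT1, a lysosomal thioesterase (chr1:40538382-40563142), was at 2289 against 126, and the neighbouring SMAP2 at 459 against 24. NFYC, a subunit of the CCAAT-binding factor NF-Y, was at 298 against 18.4, and YBX1, an RNA- and DNA-binding protein, at 2670 against 435. The protease ZMPSTE24, which processes lamin A, was at 242 against 24.8. MYCL1, a MYC family transcription factor, was at 8.90 against 1.55, below the 4-fold line. COL9A2 (252 against 14.8), which encodes a collagen chain, was in the run, and so were genes under 5 RPKM in MonoMac-1, among them BMP8B (151 against 4.75), DEM1 (153 against 1.78) and RIMS3 (39.8 against 0.489). SLC2A1, the main glucose transporter of many cells (66.0 against 9.38), and CDC20, the activator of the anaphase-promoting complex (384 against 90.5), lay in the same run. At the run's ends the lines were close, with MACF1 at 13.1 and 8.20 and ATP6V0B at 184 and 198. Leaving the run out lowered the count of genes higher in THP-1 from 263 to 228.

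**Figure D3:**
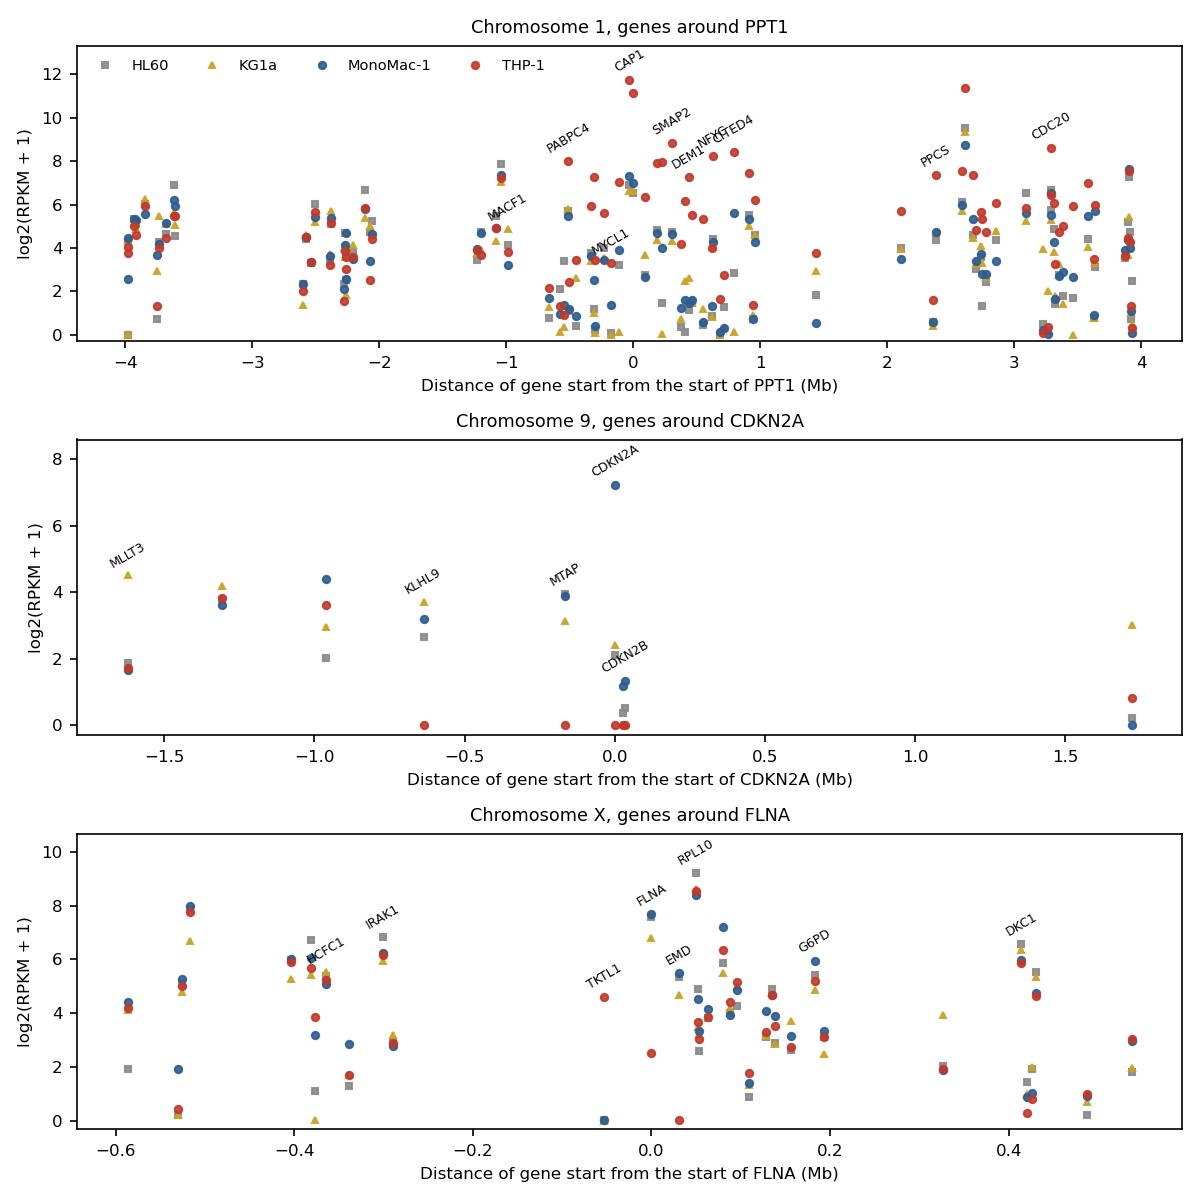
Points are genes at 1 RPKM or more in any line, by distance of their start from PPT1, CDKN2A or FLNA in Mb (horizontal) and log2(RPKM + 1) (vertical), coloured by line. THP-1 lies above the other lines for 51 of the 58 measured genes of the run around PPT1, is at or near 0 from KLHL9 to CDKN2B, and is low for FLNA and EMD beside neighbours at like levels.

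On chromosome 9 the run of 10 measured genes from KLHL9 to C9orf72 was lower in THP-1, with a median difference of -1.20. MTAP, an enzyme of methionine salvage, was listed at 0 in THP-1 and stood at 13.7 in MonoMac-1, with 14.4 in HL60 and 7.81 in KG1a. CDKN2A, which encodes the cell-cycle inhibitors p16 and ARF (chr9:21967754-21994490), was listed at 0 in THP-1 and was 149 in MonoMac-1 (interval 147 to 151), with 3.28 in HL60 and 4.31 in KG1a. CDKN2B, which encodes the related inhibitor p15, was listed at 0 in THP-1 and was 1.49 in MonoMac-1. KLHL9, next to them, was at 0.00326 in THP-1 against 8.10 in MonoMac-1. The AF9 gene MLLT3, farther along the same arm, was alike in both lines (2.30 and 2.14).

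At the end of the X chromosome 3 neighbouring genes were 4-fold apart beside others that were close. FLNA, the actin crosslinker filamin A (chrX:153576900-153603006), was at 4.71 in THP-1 and 207, 189 and 109 in MonoMac-1, HL60 and KG1a. EMD, which encodes the nuclear envelope protein emerin (chrX:153607597-153609883), was at 0.0215 in THP-1, 1 fragment equivalent, and 44.4, 39.4 and 24.6 in the other lines. TKTL1, a transketolase-like gene just before FLNA, ran the other way, at 23.5 in THP-1 against 0.0131 in MonoMac-1. RPL10, a ribosomal protein gene nearby, was at 368 and 336.

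The runs higher in MonoMac-1 held most of their genes on chromosomes 6, 10 and 12. On chromosome 10 they held 123 genes, of which 116 were higher in MonoMac-1, 13 by 4-fold and 0 the other way, with a median difference of -1.27. SRGN, the granule proteoglycan serglycin and the most abundant transcript of MonoMac-1, lay in this part, at 13925 RPKM against 1382 in THP-1. TFAM, which packages mitochondrial DNA, was at 75 against 17.7, HK1, the first enzyme of glycolysis, at 48.1 against 10.9, and the mitotic kinase CDK1 at 108 against 36.7. On the short arm of chromosome 6, 5 runs held 150 genes, of which 140 were higher in MonoMac-1. They included 27 histone genes of the replication clusters and the class I HLA genes. SERPINB1, an inhibitor of neutrophil proteases, was at 173 against 31.0, LY86, a partner of a Toll-like receptor homolog, at 146 against 16.4, and F13A1, a coagulation factor subunit of monocytes, at 244 against 18.3. On chromosome 12, 4 runs held 98 genes, 93 of them higher in MonoMac-1, including GAPDH (2178 against 1205), TPI1 (315 against 108) and the anaphylatoxin receptor C3AR1 (29.4 against 0.556). CD4, inside the same part, went the other way, at 61.1 in THP-1 against 8.66 in MonoMac-1. Runs higher in THP-1 on other chromosomes held 10 to 28 genes, the most being those on chromosome 19 from LPAR2 to POP4 with a median difference of 0.85.

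HLA class II genes were mostly higher in MonoMac-1. The alpha and beta chains of HLA-DR, DQ and DP bind peptides of swallowed proteins, the invariant chain CD74 guards the groove, and HLA-DM loads it. Their promoters share an X box, bound by the RFX complex, and a Y box, bound by NF-Y, and the coactivator CIITA acts on both. Of 16 measured class II genes and regulators, 7 were 4-fold higher in MonoMac-1 and 0 in THP-1, against 2.44% and 2.18% of all measured genes. By any margin 14 leaned to MonoMac-1, against 54.4%, with a median difference of -1.34. Without the 5 genes in chromosome 6 runs the median was -0.56.

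To show the promoter elements, 140 bases before the RefSeq gene start are printed. HLA-DMA (chr6:32953098-32953237, minus strand, GRCh38.p14) had a difference past 4-fold. HLA-DRB1 (chr6:32589849-32589988, minus strand) and HLA-DQB1 (chr6:32666658-32666797, minus strand) were less than 4-fold apart. Capitals mark matches on the gene's strand to AGNNACNGA, used for the X box, and to ATTGG, used for the Y box.
HLA-DMA: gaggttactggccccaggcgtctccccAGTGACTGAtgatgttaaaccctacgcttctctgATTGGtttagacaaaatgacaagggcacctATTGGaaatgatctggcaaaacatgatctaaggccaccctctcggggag
HLA-DRB1: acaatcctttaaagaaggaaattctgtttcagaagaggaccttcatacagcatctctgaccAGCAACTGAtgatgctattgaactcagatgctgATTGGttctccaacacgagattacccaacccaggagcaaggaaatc
HLA-DQB1: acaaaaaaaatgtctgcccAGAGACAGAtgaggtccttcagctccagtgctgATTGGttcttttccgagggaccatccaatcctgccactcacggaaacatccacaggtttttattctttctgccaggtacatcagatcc
Over all 35116 RefSeq windows of 250 bases before a start, AGNNACNGA on either strand was found in 12.3% and ATTGG in 32.0%. The 2 motifs in this order on the gene's strand, with starts 33 or 34 bases apart, a spacing chosen after the sequences were seen, were found in 11 windows (0.0313%), 6 of them of class II genes. HLA-DMA, HLA-DRB1 and HLA-DQB1 all hold the pair, while their differences ran from -2.99 for HLA-DMA to -1.05 for HLA-DRB1 and 0.73 for HLA-DQB1. Of the 16 class II genes and regulators with a window, only 6 hold the pair. HLA-DMB, HLA-DPA1, HLA-DPB1 and CD74, like HLA-DMA 4-fold higher in MonoMac-1, do not hold it. A match is a run of letters and does not show binding.

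HLA-DRA, the alpha chain of HLA-DR (chr6:32407619-32412826), measured 4.39 in THP-1 (interval 3.80 to 5.05) against 430 in MonoMac-1 (426 to 434), with 1.28 in HL60 and 0.494 in KG1a. HLA-DRB1, its partner chain, was at 57.4 in THP-1 against 120 in MonoMac-1, with 0.901 and 0.435 in HL60 and KG1a. In THP-1 the beta chain was thus listed above the alpha chain, and in MonoMac-1 below it; DRB genes are near copies of each other and their reads may be assigned to the wrong copy. HLA-DPA1 was at 1.03 and 74.4 and HLA-DPB1 at 0.549 and 41.2. The peptide loaders HLA-DMA (3.96 and 38.6) and HLA-DMB (0.285 and 12.8) were low in THP-1. CD74 was at 79.8 in THP-1 against 608 in MonoMac-1, with 88.8 in HL60 and 1.67 in KG1a. CIITA was at 0.25 in THP-1 (interval 0.179 to 0.340) and 5.85 in MonoMac-1, while HL60 had 0.0566 and KG1a 0.146. Of the 7 genes 4-fold higher, 4 lay in a chromosome 6 run, and CD74 and CIITA lie on other chromosomes.

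HLA class I genes present peptides from inside the cell, and peptides reach them through the TAP transporter. Of 20 measured genes, 4 were 4-fold higher in MonoMac-1 and 0 in THP-1, against 2.44% and 2.18% of all measured genes. HLA-B, at 279 and 1301, HLA-C, at 108 and 596, and HLA-F, at 1.47 and 15, were higher in MonoMac-1, and ERAP2, which trims peptides, was at 0.737 and 6.5. The light chain B2M (1032 and 1950) and the transporter gene TAP1 (27.0 and 23.2) were closer. The list's median was -0.15 and turned to 0.03 when differences were centred among genes of like length. All 4 called genes lie in a run of the kind described above, and without genes in runs the median was 0.21.

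**Figure D4:**
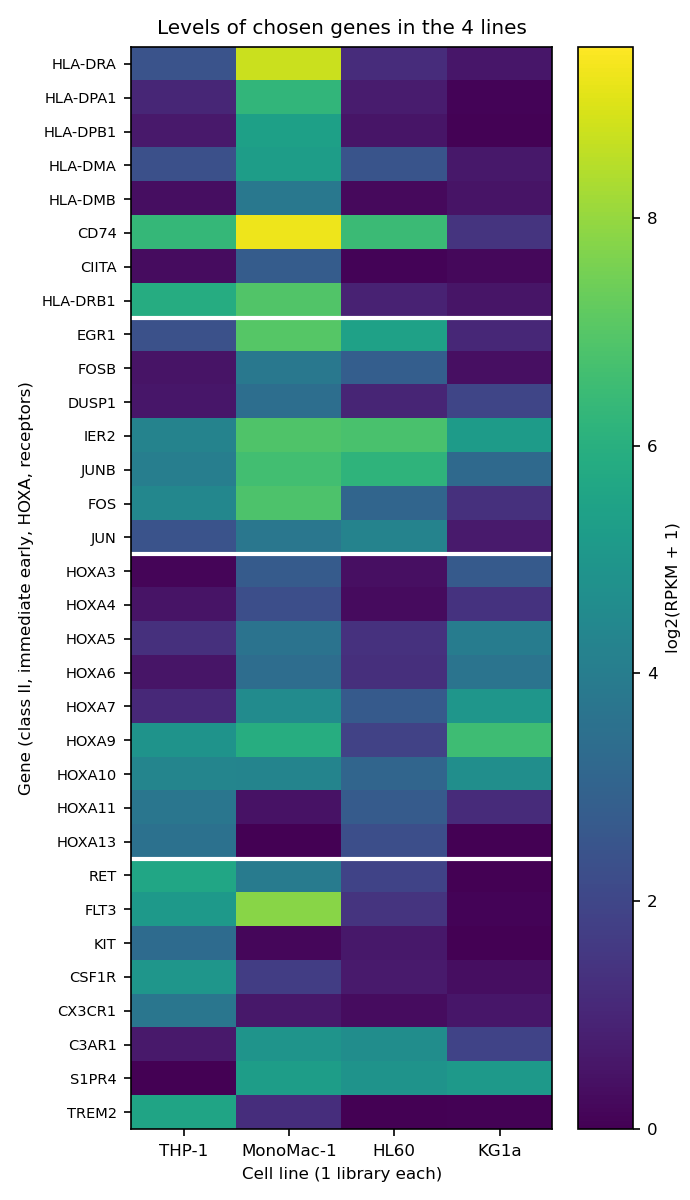
Rows are genes of HLA class II, immediate early genes, HOXA genes and receptors, columns are the 4 lines, and colour is log2(RPKM + 1). MonoMac-1 is brightest for most class II and immediate early genes, while HOXA11 and HOXA13 are bright in THP-1.

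Immediate early genes are switched on within minutes of growth or stress signals, without new protein synthesis, and many depend on serum response factor bound to CArG boxes. Of 20 measured, 19 were higher in MonoMac-1 by any margin, against 54.4% of all measured genes. By 4-fold 6 were higher in MonoMac-1, against 2.44%, and 0 in THP-1, against 2.18%. The list's median difference was -1.44. The median was -1.42 with differences centred by gene length. EGR1, a zinc finger factor of this class (chr5:137801181-137805004), measured 4.14 in THP-1 (interval 3.77 to 4.54) against 128 in MonoMac-1 (126 to 129), with 41.8 in HL60 and 1.08 in KG1a. FOSB (0.411 and 12.9), JUNB (15.8 and 97.5) and FOS (20.2 and 114), subunits of AP-1, were higher in MonoMac-1. The phosphatase gene DUSP1, which ends MAP kinase signals, was at 0.504 and 9.79, and IER2 at 17.9 and 116. HL60 was near MonoMac-1 for IER2 (109) and JUNB (72.1) and below it for FOS (7.51). Of 15 measured genes of ERK feedback, 0 were 4-fold apart, near the 4.62% of all measured genes in so short a list. The list's median was 0.16, and DUSP6 stood at 9.71 and 8.84.

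The stretch before EGR1 (chr5:138465339-138465478, plus strand, GRCh38.p14, from RefSeq) is shown because EGR1 led this list. Capitals mark 2 CArG boxes, the motif of serum response factor.
EGR1: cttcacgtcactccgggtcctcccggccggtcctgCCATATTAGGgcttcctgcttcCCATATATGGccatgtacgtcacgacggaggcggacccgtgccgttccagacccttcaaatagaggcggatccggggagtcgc
A CArG box on either strand was found in 1.16% of all windows, and in 2 of the 16 immediate early genes that matched the RefSeq table, EGR1 and EGR2.

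HOXA genes, the best known targets of MLL fusions, differed by position in the cluster. Of 10 measured, 2 were 4-fold higher in THP-1 and 4 in MonoMac-1. At the HOXA13 end THP-1 was higher: HOXA13 was at 10.6 in THP-1 against 0.0149 in MonoMac-1, with 3.85 in HL60 and 0.00652 in KG1a, and HOXA11 at 12.2, 0.393, 5.65 and 1.26. HOXA9 (28.6 and 59.7) and HOXA10 (19.2 and 18.3) were high in both MLL-AF9 lines. From HOXA7 to HOXA3 MonoMac-1 was higher. HOXA7 was at 1.12 and 23.2, HOXA6 at 0.438 and 9.56, HOXA5 at 1.49 and 11.4 and HOXA3 at 0.0877 and 5.57. KG1a had levels like those of MonoMac-1 for these (30.8, 11.6, 14.8 and 5.38). HOXA4 (0.433 and 3.90) was under the threshold. Reads from antisense transcripts of the cluster could not be told apart, since how strand was handled is unknown here.

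Outside HOXA, 28 genes known as targets of MLL fusions had a median of 0.07. By 4-fold 3 were higher in MonoMac-1 and 1 in THP-1, against 2.44% and 2.18% of all measured genes. The list's median changed sign with genes at 5 RPKM or more and with differences centred by gene length. MEIS1, the homeobox cofactor of HOXA9, was at 0.0226 in THP-1 (2.50 fragment equivalents) against 18.6 in MonoMac-1, with 0.0186 in HL60 and 0.480 in KG1a. PBX3, the other cofactor, was at 57.5 and 51.4. MEF2C, a transcription factor of blood cell precursors, ran opposite to MEIS1, at 21.9 in THP-1 against 0.208 in MonoMac-1, with 1.69 in HL60 and 31.1 in KG1a. SOCS2, an inhibitor of cytokine signalling, was at 0.670 and 29.7, and CDK6 was alike (39.5 and 46.7). Of 22 genes of the MLL complex and its elongation partners, 0 were 4-fold apart. That is near the 4.62% of all measured genes in so short a list. The differences of these 22 ran from -0.73 to 0.62. MLL itself was at 7.10 and 5.31, MEN1 at 16.1 and 19.5 and DOT1L at 21 and 19.7.

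Receptor tyrosine kinases differed in both directions. Of 21 measured, 2 were 4-fold higher in THP-1 and 3 in MonoMac-1. CSF1R, the receptor of the monocyte growth factor M-CSF, was at 31.1 in THP-1 against 2.31 in MonoMac-1, and KIT, the stem cell factor receptor, at 9.06 and 0.111. FLT3 was at 33.4 in THP-1 against 225 in MonoMac-1, in a run of chromosome 13 genes that were higher in MonoMac-1 for 15 of 16. LTK (2.34 and 30.1) and ROR2 (0.0772 and 6.38) were higher in MonoMac-1. RET, the receptor of glial cell line-derived factors, was at 47.8 in THP-1 against 14.6 in MonoMac-1, a difference of 1.64. Of 23 measured chains of cytokine receptors, 0 were 4-fold apart, against 4.62% of all measured genes. In a list this short 0 is near that share. IL6R was at 112 and 43.5 and CSF2RB at 9.34 and 5.38.

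Monocyte and macrophage markers split both ways. Of 29 measured, 2 were 4-fold higher in THP-1 and 3 in MonoMac-1, with a median of -0.34. Over all measured genes the shares were 2.18% and 2.44%. LYZ, the bacteria-lysing enzyme lysozyme, was at 510 in THP-1 against 4837 in MonoMac-1, with 12 in HL60. The costimulatory ligand CD86 was at 0.312 and 5.22 and MPEG1, a pore former of phagosomes, at 3.90 and 21. CX3CR1, the fractalkine receptor of patrolling monocytes, was at 12.1 and 0.533 and stood with CSF1R on the THP-1 side. The factors SPI1 (98.9 and 168) and CEBPA (185 and 159) were within 2-fold. Myeloid transcription factors as a list held 0 genes 4-fold higher in THP-1 and 2 in MonoMac-1, EGR1 and PPARG.

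Granule proteins were near equal for the main neutrophil proteases and far apart for others. AZU1 (2033 and 1536), PRTN3 (1624 and 1558) and CTSG (1789 and 2410) were within 2-fold. MPO, the peroxidase of azurophil granules, was at 4.78 in THP-1 against 95.2 in MonoMac-1, both far below HL60 at 4610. The inhibitor CST7, cystatin F, was at 3.89 and 196 and the ribonucleases RNASE3 and RNASE6 at 10.6 and 104 and at 3.32 and 25.5. With SRGN these made 5 of 17 measured granule genes 4-fold higher in MonoMac-1, against 2.44% of all measured genes. CEACAM6, a surface glycoprotein of granulocytes, was at 8.36 in THP-1 against 0.00481 in MonoMac-1.

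Receptors that sense microbes and immune complexes showed single large differences in lists that were otherwise close. TREM2, a lipid receptor of macrophages, was at 45.4 in THP-1 against 1.35 in MonoMac-1, listed at 0 in HL60 and at 0.0312 in KG1a. LY96, which joins TLR4 to bind endotoxin, was at 0.114 and 5.23, CD180, a Toll-like receptor homolog, at 3.19 and 19.6, and NLRC4, an inflammasome sensor, at 1.13 and 8.48, so 1 of 20 was 4-fold higher in THP-1 and 3 in MonoMac-1. Over all measured genes these shares were 2.18% and 2.44%. TLR2 (33.7 and 37.2) and TLR4 (5.77 and 7.42) were alike. FCER2, the low-affinity IgE receptor, was at 1.28 and 40.2, and PILRA, an inhibitory receptor, at 0.490 and 13.2. FCGR1A was alike (18.9 and 25). The adhesion ligands ICAM2 (2.26 and 18.9) and ICAM3 (13.7 and 68.7) were higher in MonoMac-1, and ITGB5 (3.38 and 0.0708) in THP-1. THBD, an anticoagulant receptor, was at 25.6 and 3.80, opposite to F13A1.

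Interferon-stimulated genes gave no common direction: of 31 measured, 2 were 4-fold higher in each line and the median was 0.06, which changed sign with genes at 5 RPKM or more and with differences centred by gene length. The membrane proteins IFITM1 (7.24 and 0.440) and IFITM3 (48.4 and 6.75) stood on the THP-1 side, and TRIM22 (1.78 and 13.8) and GBP2 (2.53 and 17.0) on the MonoMac-1 side. ISG15 was at 11.8 and 16.5. Inflammatory cytokines and chemokines were low in both, and CCL3 (0.469 and 7.25) was the 1 of 20 that was 4-fold apart. That is near the 4.62% of all measured genes.

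Lipid handling and sterol synthesis leaned toward MonoMac-1. Of 23 lipid genes of macrophages, 4 were 4-fold higher in MonoMac-1 and 1 in THP-1, against 2.44% and 2.18% of all measured genes. By any margin 19 were higher in MonoMac-1, against 54.4%, with a median of -0.85. Besides FABP4, the fatty acid carrier FABP5 was at 11.5 and 94.9, the lipoprotein APOE at 3.23 and 39.5, and PPARG, the nuclear receptor that activates FABP4, at 4.39 and 28.0. ABCA1, which exports cholesterol, was at 15 in THP-1 against 0.991 in MonoMac-1. Of 25 genes of cholesterol synthesis, 24 were higher in MonoMac-1, against 54.4% of all genes, with a median of -0.70 (-0.79 with differences centred by gene length). DHCR7, the last reductase of the pathway, was at 23.7 and 138, with 161 in HL60 and 146 in KG1a, and was the 1 gene past 4-fold. MVD, a decarboxylase of the pathway, was at 26.4 and 92.1.

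**Figure D5:**
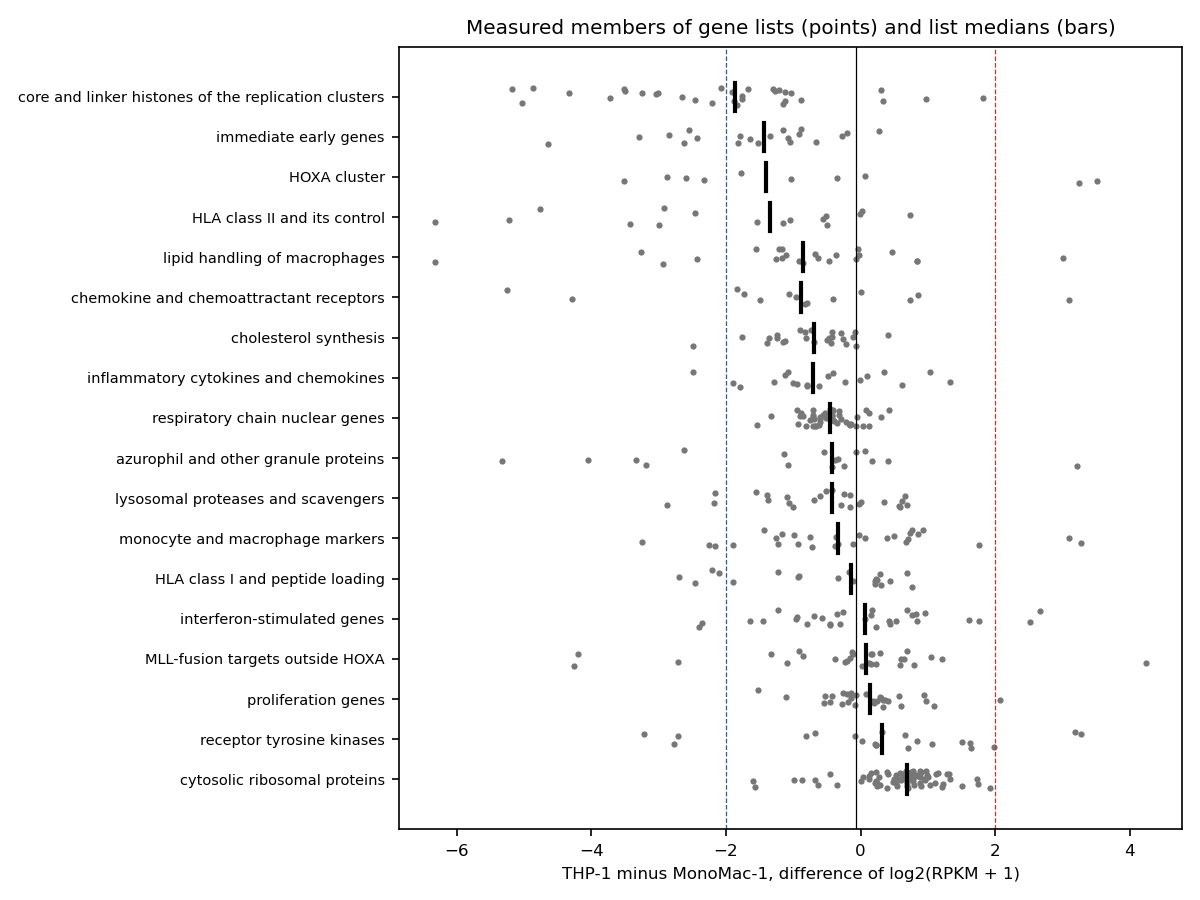
Each point is a measured member of the named gene list, placed by its difference THP-1 minus MonoMac-1 in log2(RPKM + 1), and black bars are list medians. The thin line is the median of all measured genes (-0.07) and dashed lines mark 4-fold; medians run from -1.86 for replication histones to 0.69 for ribosomal proteins.

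Ribosomal protein genes were mostly higher in THP-1 and respiratory chain genes in MonoMac-1, by small margins. Of 75 genes of cytosolic ribosomal proteins, 67 were higher in THP-1 by any margin, against 45.6% of all genes, with a median of 0.69 and 0 past 4-fold. RPS18 was at 4902 in THP-1 against 1292 in MonoMac-1 and RPL5 at 1621 and 572, while RPL41 (24.5 and 75) and RPL9 (16.8 and 53.1) ran the other way; ribosomal protein genes have many processed copies that can take their reads. The median was 0.41 under quantile normalization and 0.92 with differences centred by gene length. Of 47 nuclear genes of the respiratory chain, 41 were higher in MonoMac-1, against 54.4% of all genes, with a median of -0.46 and 0 past 4-fold. The respiratory chain median was -0.29 with differences centred by gene length. NDUFB5 was at 52.1 and 132. Of 28 genes of glycolysis and hypoxia, 2 were higher in each line by 4-fold. These were SLC2A1 and SLC2A5 (46.3 and 5.95) in THP-1 and PFKM (0.937 and 9.31) and HK1 in MonoMac-1. The shares of all measured genes were 2.18% and 2.44%.

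Genes of growth control and DNA damage leaned both ways. In the list of 27 measured genes of the 9p21 region and the damage response, 16 were higher in MonoMac-1 by any margin. That is close to the 54.4% of all measured genes. By 4-fold, 3 were higher in MonoMac-1 and 1 in THP-1, against 2.44% and 2.18% of all measured genes. The median was -0.55, ranging to -0.11 with genes at 5 RPKM or more, and was -0.24 without the 4 genes of the chromosome 9 run. MTAP and CDKN2A (above) belong to this list. On the THP-1 side, GADD45A, a gene induced by growth arrest and DNA damage, was 4-fold higher in THP-1 (23.3 and 4.36). CDKN1A, which encodes the cell-cycle inhibitor p21, was at 12.6 and 5.78, and the ubiquitin ligase gene MDM2 at 16 and 3.40. RB1, the pocket protein that restrains entry into S phase, was at 20.9 and 79.5. Of 30 proliferation genes, 1 was 4-fold apart, CDC20, near the 4.62% of all measured genes. The list median was 0.14, with MKI67 at 37.1 and 16.9 and TOP2A at 131 and 110. The BCL2 family held 0 of 15 past 4-fold, near the 4.62% of all measured genes in so short a list. BCL2 (30.7 and 28.6) and MCL1 (80.2 and 68.6) were alike, and BCL2L11, which encodes the death activator BIM, was at 11.7 and 2.46.

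Smaller groups held further large gaps. Of 25 redox genes, CYBB, the catalytic subunit of the phagocyte NADPH oxidase, was at 4.28 and 41.8 while its partner CYBA was at 456 and 374. The catalase gene CAT was at 255 and 978. GSTT1 was at 0.00163 in THP-1, and in HL60 and KG1a was under 0.1, against 6.94 in MonoMac-1. S100P (4.97 and 78.7) and S100A10 (9.20 and 60.8) were higher in MonoMac-1, while S100A9, a calcium-binding protein of monocytes, was at 314 in THP-1 against 92.5 in MonoMac-1. Metallothioneins, which bind zinc and copper, had a median of -0.99, and MT1G was at 12.4 and 61.9; they are near-identical copies. Among antigens studied as drug targets, CD52 was at 7.69 and 106, CD38 at 22.3 and 3.17, and CD33 alike at 38.3 and 38.8.

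Markers of other cell types were read for all listed genes. Of 21 T and NK markers 3 were measured: CD4 was higher in THP-1, and NKG7 (16 and 159) and NCAM1 (0.0814 and 12.4) in MonoMac-1, while CD3D, CD3E and CD2 stayed at or below 0.269 RPKM in both. Of 20 stromal and epithelial markers 6 were measured and 3 were 4-fold higher in MonoMac-1, namely VIM (38.0 and 658), KRT18 (0.0937 and 4.92) and SPARC (0.0812 and 4.32), with EPCAM and COL1A1 under 0.2. Their summed level was 67.3 in THP-1 against 707 in MonoMac-1, most of it VIM, an intermediate filament of leukocytes too. Of 15 B cell markers 4 were measured, with BANK1 (6.91 and 0.767) higher in THP-1 and IGLL1 (0.0596 and 3.51) in MonoMac-1. HBB was at 15.2 and 0.859. The part of other cells in these values was not tested.

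Histone genes of the main replication cluster and short genes were mostly higher in MonoMac-1. Of 32 measured core and linker histone genes of the replication clusters, whose transcripts mostly lack a poly(A) tail, 0 were 4-fold higher in THP-1 and 14 in MonoMac-1, with a median of -1.86. Of these genes, 28 of the 32 and 13 of the 14 called lay in runs higher in MonoMac-1, nearly all in the chromosome 6 cluster, and the median without them was 0.64, of opposite sign. HIST1H1C was at 4.09 in THP-1 against 183 in MonoMac-1, with 7.97 in HL60 and 3.15 in KG1a, and HIST1H2BK at 10.5, 332, 17.0 and 8.74. Replacement histones, whose transcripts carry a tail, were closer apart from H1F0, with H3F3B at 138 and 166 and H2AFZ at 481 and 480. Of 620 single-exon genes, 17 (2.74%) were 4-fold higher in THP-1 and 29 (4.68%) were lower by as much. Without the histones the counts were 17 and 17 of 592, or 2.87% each. The shares of all measured genes were 2.18% and 2.44%. Differences followed gene length: genes under 1 kb had a median of -0.31 and genes over 4 kb 0.12, and the shares 4-fold higher in MonoMac-1 were 4.79% and 1.26%. Ribosomal protein genes are short, with a median length of 0.728 kb, and ran against that trend. Of 406 zinc finger genes with symbols starting in ZNF, 16 (3.94%) were 4-fold higher in THP-1 and 2 (0.493%) in MonoMac-1, with a median of 0.39. Over all measured genes the shares were 2.18% and 2.44%. ZNF642, ZNF643 and ZNF684, among the genes higher in THP-1, lay in the chromosome 1 run. Runs higher in THP-1 on chromosome 19 also held many ZNF genes. The median without genes in runs was not computed. The part of library preparation in these differences cannot be told apart from the lines.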

How the data were processed

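RNA of 4 leukemia lines, 1 library each, was sequenced after TRIzol extraction and Illumina library preparation, per the labels' protocols. CASAVA 1.8.2 and the build hg19 appear in the submitters' processing notes. The aligner, annotation, strand handling and read filters were not given in the sources used here. Per gene, the authors deposited an RPKM value and a second whole-number signal, read here, from its multiples of 100, as sequenced bases on the gene. Of repeated symbols (28) the highest entry was kept.

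Differences were taken on log2(RPKM + 1), a pseudocount of 1, over genes at 1 RPKM or more in either line, with 4-fold as the threshold. Sampling intervals (95%) came from bases divided by 200. The steps were tested on simulated data. Python 3.11.15, pandas 2.3.3, numpy 2.4.6, scipy 1.17.1 and matplotlib 3.10.9 were used. Each line is its own group with 1 library, so no test was run.

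Genes named were the 15 largest differences in each direction (replication-cluster histones, XIST and Y-linked genes left out), in each of 45 gene lists the members 4-fold apart (up to 6 in each direction) and fixed reference genes, and the genes of the 3 highest and 3 lowest windows. Others were named after their values were seen, as were the stretches. The members and lists were chosen with earlier results of these data known. Alternatives covered pseudocount, filter, scaling, fold, histone and single-exon genes and repeated symbols. Motifs were searched in RefSeq promoter windows of GRCh38.p14, for which 16 of 19 class II and 16 of 21 immediate early genes matched.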

Additional observations from a re-analysis of the deposited data

How the results depend on the processing

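The counts of 263 genes higher in THP-1 and 294 in MonoMac-1 depended most on the pseudocount and the fold. They were 634 and 583 with a pseudocount of 0.1, 72 and 107 with a pseudocount of 5, 993 and 1256 at 2-fold and 97 and 105 at 8-fold, as the construction of these settings implies. With RPKM of 5 or more they were 216 and 263, with other scalings 267 to 280 and 280 to 290, and without histone and single-exon genes 246 and 263. Alternatives chosen after seeing the data gave 228 and 294 without the chromosome 1 run and 284 and 257 with differences centred among genes of like length. Without HL60, the line on the lower side stood 4-fold below the rest for 54 and 68 genes instead of 24 and 28. Leaving a line out removes a condition, so these counts could not fall. No named gene past 4-fold was reversed, though a change of pseudocount or filter cannot change the sign of a difference. With a pseudocount of 5, which can only narrow differences, 109 of 183 such genes kept a 4-fold difference. With differences centred by length 178 of 183 kept it, and under the scalings 181 to 182. A pseudocount of 0.1 can only widen differences, so all 183 kept theirs by construction. List medians changed sign under at least 1 setting for HLA class I, complement, the MLL complex, interferon-stimulated genes, MLL-fusion targets, Fc and LILR receptors, B cell, cancer-testis and erythroid markers, small RNAs and replacement histones. Other medians kept their sign but moved in size. HLA class II went from -1.34 to -2.76 with a pseudocount of 0.1 and -0.74 with 5, replication histones from -1.86 to -3.64 and -0.70, monocyte markers from -0.34 to -0.06 without single-exon genes, metallothioneins from -0.99 to -0.27 with a pseudocount of 5 and -0.12 with no filter, and HOXA and immediate early genes to -0.83 and -0.87 with a pseudocount of 5. No paired analysis was possible because each line has 1 library, and for the same reason leaving out a replicate could not be run. Depth differs between the lines (6.04 and 13.6 gigabases), so values near 0 are less precise in THP-1.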
